A study of Mus musculus with 8 samples.

Results

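The proteasome genes of mouse Hepa-1c1c7 hepatoma cells were taken as all protein-coding genes whose symbol begins with Psma, Psmb, Psmc, Psmd, Psme, Psmf or Psmg followed by a digit, which gave 50 of the 23403 genes of the RNA-seq count table. The rule used names alone and no measured value. Of these genes, 48 encode proteasome subunits, activators, an inhibitor or dedicated chaperones, and 2 (Psmc3ip and Psme3ip1) share the letters without being subunits. A further gene of the annotation, Psme2b, had no row in the table.

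Hepa-1c1c7 is an established mouse hepatoma line. For RNA-seq, 2 libraries came from cells given 25 µM hexavalent chromium, Cr(VI), as potassium chromate for 90 minutes, and 2 came from cells without chromium. For FAIRE-seq, which recovers DNA that is not crosslinked to nucleosomes, 1 library each came from cells given 25 µM Cr(VI) for 90 minutes, from cells that spent 20 passages at a low dose (0.5 µM), and from a control for each. The control for the low dose also spent 20 passages, without chromium. The labels do not give the passage number of the RNA-seq control cells, nor whether libraries of a group came from separate cultures, so that p-values measure the spread between these libraries, which may be technical.

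The proteasome is the large protease that degrades proteins tagged with ubiquitin. Its barrel, the 20S core, stacks outer rings of α subunits on inner rings of β subunits that hold the catalytic sites. The 19S cap, built from a ring of ATPases and a set of non-ATPase subunits, binds ubiquitin chains, unfolds the substrate and feeds it into the core. In cells exposed to interferon, alternative catalytic β subunits form the immunoproteasome, which produces peptides for MHC class I. The transcription factor Nfe2l1 raises the genes of the whole complex when proteasome activity is short, so that the subunits are known as a co-regulated set.

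The 4 RNA-seq libraries held 32319676 to 37696116 counts. Proteasome genes took 0.684% and 0.766% of the counts in the treated libraries and 0.691% and 0.699% in the controls. Of the 9 hepatocyte and hepatoma markers, albumin, Afp, Trf, Krt8 and Krt18 were abundant in every library, whereas Hnf4a (8 to 15 counts), Ttr (12 to 61) and Apoa1 (0 to 9) were near 0. Among fibroblast, immune and endothelial markers, Thy1, Cd3e and Cdh5 were at 0 and Ptprc at 0 to 3 counts in all libraries. Col1a2 had 0 to 5 counts, Kdr 3 to 8 and Col3a1 77 to 109, while Col1a1 had 7066 to 10547 and Pdgfrb 1207 to 2721. Of the immune markers, Lyz2 had 92 to 201 counts, and Cd68 had 172 and 639 in the treated libraries against 270 and 324 in the controls. Albumin had 124057 and 102810 counts in the treated libraries against 31450 and 37046 in the controls. Apoe had 300 and 814 against 111 and 147, and Pecam1 had 60 and 65 against 17 and 19. The part of these differences in the results was not tested. The treated libraries resembled each other less than the controls did (Pearson's r of log2 CPM across 13619 genes 0.974 and 0.997).

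Most proteasome genes were measured close to their control level, and a single gene of the constitutive core stood out. Of the 49 members with enough counts to test, 2 rose at 25 µM Cr(VI) and none fell at an adjusted p under 0.05 (edgeR's quasi-likelihood test, Benjamini-Hochberg over 13619 genes). They were Psma7, an α subunit of the core, and Psmb8, a catalytic subunit of the immunoproteasome. This share, 4.08%, stood beside 4.63% of all tested genes called in either direction, 1.78% higher and 2.85% lower, so that the family as a whole was called at about the rate of any gene. At an unadjusted p under 0.05 there were 13 members and 4176 of all tested genes. The remaining member, the testis subunit Psma8, had 0 and 2 counts in the treated libraries and 5 and 8 in the controls and was not tested.

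The median log2 fold change over the 49 tested members was 0.17, against -0.0047 over all tested genes. It was above 0 in 33 members and below 0 in 16. When scaled by library size alone, the median of all genes moved to -0.11 and that of the members to 0.04, with 27 above and 22 below 0. Members lay closer to 0 than other genes did, with 40 of 49 (81.6%) within 0.5 on the log2 scale against 63.2% of all tested genes. Members were also more abundant per length of exon, with a median in the controls of 84.8 RPKM beside 6.91 RPKM for all tested genes. The part of abundance in this closeness was not tested. In 19 members both treated libraries were above both controls (38.8%, beside 32.2% of all tested genes), and in 8 both were below (16.3%, beside 34.0%). DESeq2 called 3 members, Psma7, Psmb8 and Psmf1, where it called 14.2% of the 14170 genes it tested. The count rested on both controls: without control replicate 1 or 2 no member passed in edgeR (2 and 3 at an unadjusted p under 0.05), whereas without treated replicate 1 or 2 there were 46 and 39, since the spread then came from the controls alone. In bulk RNA, a smaller share of cells of a kind and less RNA per cell cannot be told apart.

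**Figure D1:**
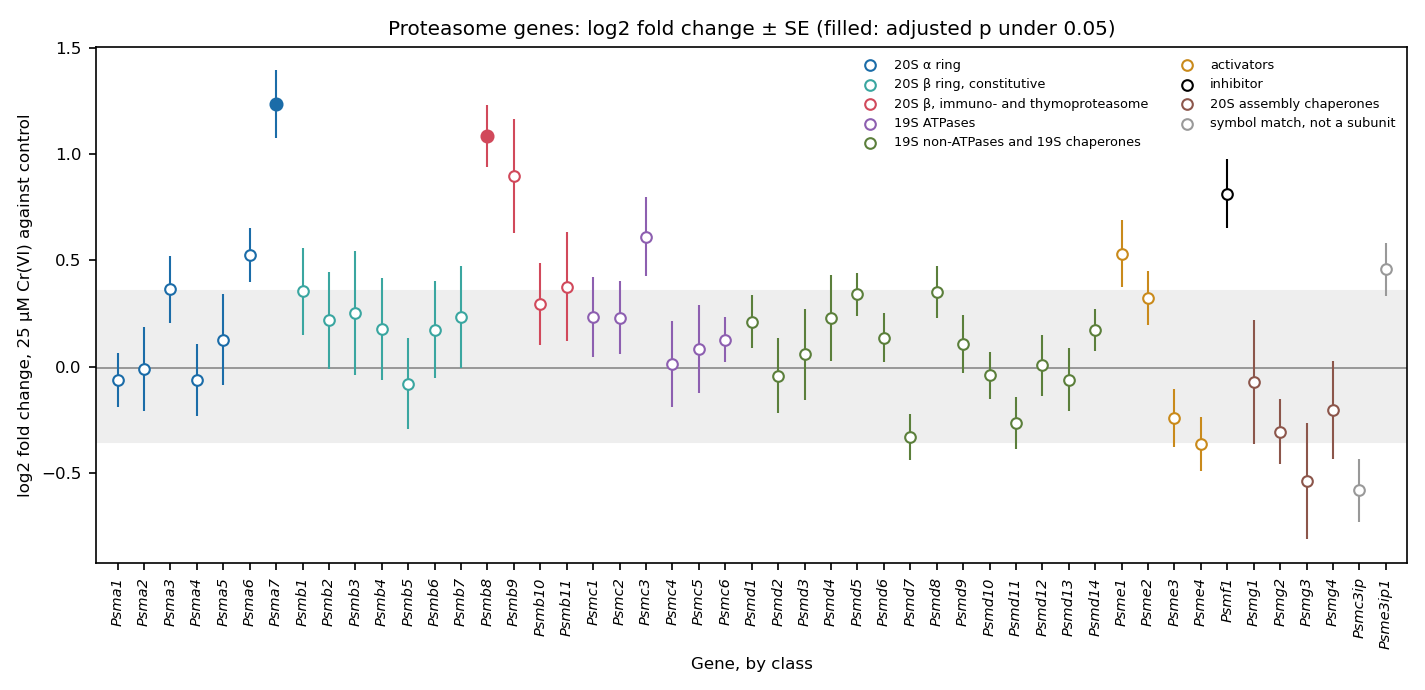
The log2 fold change (25 µM Cr(VI) against control, 2 libraries each) of the 49 tested proteasome genes is plotted by class with bars of 1 SE. Filled points, Psma7 and Psmb8, passed an adjusted p of 0.05; the grey line and band are the median and the middle 50% of all 13619 tested genes.

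Psma7, the α4 subunit of the core ring (chromosome 2, 180036367 to 180042464, minus strand, GRCm38.p6, which is mm10), had 511 and 626 counts per 1000000 (CPM, with library sizes scaled by TMM) in the treated libraries and 237 and 247 in the controls. Both treated libraries stood far above both controls, and the fold was 2.35 (log2 fold change 1.23, SE 0.16, adjusted p 0.039 by edgeR's quasi-likelihood test). DESeq2 gave an adjusted p of 6.8e-07. The edgeR call was lost without control replicate 1 (adjusted p 0.289) or control replicate 2 (0.244), with the log2 fold change between 1.08 and 1.38 in all 9 alternatives. The 250 bases before its start site (chr2:180042465-180042714, minus strand) are shown because it was the member that moved most. The capitals mark CCAAT, the box bound by NF-Y, which begins 196 bases before the start; the core of the antioxidant response element, TGACNNNGC, was not in this window.
Psma7: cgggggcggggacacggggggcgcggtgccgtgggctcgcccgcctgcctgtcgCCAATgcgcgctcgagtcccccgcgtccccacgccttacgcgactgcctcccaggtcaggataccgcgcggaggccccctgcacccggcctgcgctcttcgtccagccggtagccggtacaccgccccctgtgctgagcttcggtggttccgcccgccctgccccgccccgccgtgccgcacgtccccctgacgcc

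No other α gene passed the test, and the median log2 fold change of the 7 tested α genes was 0.13. Against the control mean, that median was -0.17 in treated replicate 1 and 0.37 in treated replicate 2. Psma6 had 150 and 175 CPM against 113 and 113 (log2 fold change 0.53, adjusted p 0.088). Psma1 was at 182 and 210 CPM against 204 and 205, the treated values lying on either side of the controls. Compared per length of exon, in RPKM, Psma7 was 9th of the 14 constitutive core subunits in both controls, at 149 and 155 RPKM. In the treated libraries it was 1st at 321 RPKM and 3rd at 393 RPKM. The gene at 0.897 and 0.921 of the median core subunit level in the controls was thus at 2.12 and 1.87 times that median after treatment. The most abundant core genes were otherwise Psmb4 and Psmb3, both β subunits, in each library.

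**Figure D2:**
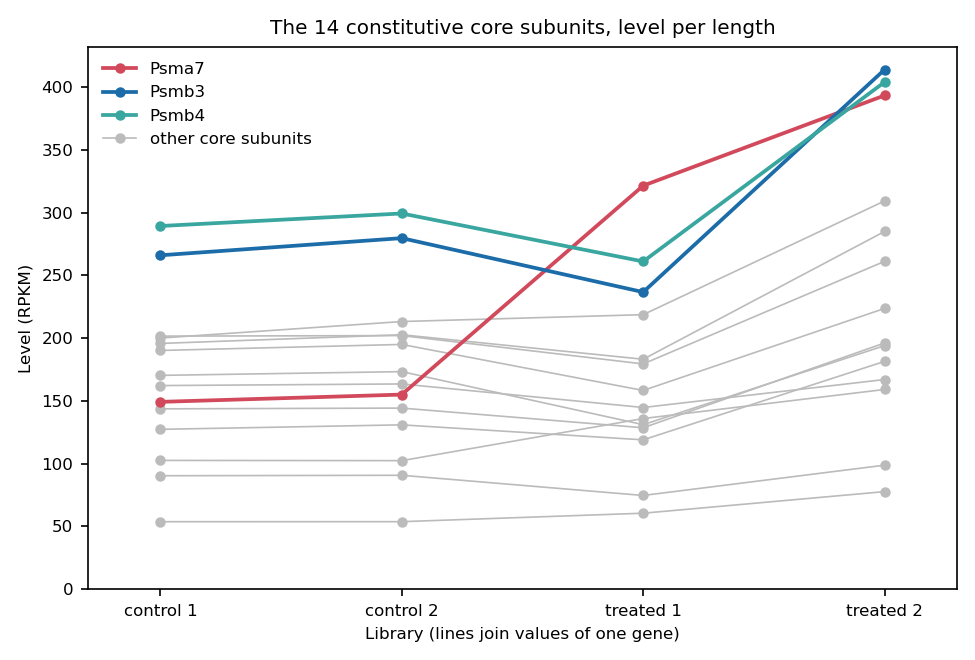
Levels in RPKM of the 14 constitutive core subunits (Psma1 to Psma7 and Psmb1 to Psmb7) are plotted for each of the 4 libraries, with lines joining the values of 1 gene. Psma7 moves from 149 and 155 RPKM in the controls to 321 and 393 RPKM in the treated libraries, while Psmb3 and Psmb4 are the highest in both controls.

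None of the 7 constitutive β genes passed the test, and DESeq2 called none. None was under an unadjusted p of 0.05 either, where 4176 of all 13619 tested genes were. Their log2 fold changes lay between -0.08 and 0.35 with a median of 0.22, which was -0.16 in treated replicate 1 and 0.49 in treated replicate 2 against the control mean. The catalytic subunits are Psmb6 (caspase-like), Psmb7 (trypsin-like) and Psmb5 (chymotrypsin-like). Psmb5 had 114 and 169 CPM in the treated libraries and 148 and 151 in the controls. Psmb6 had 140 and 214 CPM against 156 and 157. Psmb7 had 194 and 301 CPM against 207 and 214. In each of these 3 genes treated replicate 1 was below both controls and treated replicate 2 above both. Only Psmb1, a structural subunit, had both treated libraries above both controls, at 227 and 320 CPM against 207 and 221 (log2 fold change 0.35, adjusted p 0.302 by edgeR's quasi-likelihood test). That was 14.3% of the 7 genes, beside 32.2% of all tested genes.

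The 4 immunoproteasome and thymoproteasome genes were expressed below the constitutive core, with a median of 8.69 RPKM in the controls beside 199 RPKM for the constitutive β genes and 6.91 RPKM for all tested genes, and had a median log2 fold change of 0.64. Psmb8 (β5i, which takes the place of Psmb5; chromosome 17, 34198195 to 34201454, plus strand) had 35.1 and 41.7 CPM in the treated libraries and 18.1 in both controls. The fold was 2.12 (log2 fold change 1.09, SE 0.15, adjusted p 0.041 by edgeR's quasi-likelihood test, 0.00022 by DESeq2). Without control replicate 1 or 2 the edgeR adjusted p was 0.244 and 0.241. Psmb9 (β1i, which replaces Psmb6) had 4.58 and 5.73 CPM against 2.33 and 3.20, with a log2 fold change of 0.90 that did not pass (adjusted p 0.121). Psmb10 (β2i, which replaces Psmb7) had 36.8 and 51.0 CPM against 35.0 and 36.5 (log2 fold change 0.30, adjusted p 0.355). Per length, Psmb8 was at 14.8 RPKM in the controls and 31.4 RPKM after treatment, where its constitutive partner Psmb5 had 171.8 RPKM in the controls. Psmb11, the thymus subunit, was at 8.42 and 12.7 CPM against 8.51 and 7.75. The 250 bases before the Psmb8 start (chr17:34197945-34198194, plus strand) are shown as those of the second gene that rose; they hold neither CCAAT nor TGACNNNGC on either strand.
Psmb8: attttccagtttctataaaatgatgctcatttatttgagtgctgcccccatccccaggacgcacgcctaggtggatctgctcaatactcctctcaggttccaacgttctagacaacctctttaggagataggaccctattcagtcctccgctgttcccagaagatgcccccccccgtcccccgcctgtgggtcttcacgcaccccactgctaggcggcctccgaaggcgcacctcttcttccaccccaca

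The 6 ATPases of the cap, which unfold the substrate, had log2 fold changes from 0.01 (Psmc4) to 0.61 (Psmc3), all above 0 and none past the test. The sign rested on treated replicate 2, the class median being -0.0060 against the control mean in treated replicate 1 and 0.37 in treated replicate 2, and Psmc1, Psmc4 and Psmc5 were below the control mean in treated replicate 1. Psmc3 had 178 and 246 CPM in the treated libraries and 137 and 140 in the controls (adjusted p 0.124 by edgeR's quasi-likelihood test). In 3 of the 6 ATPase genes, Psmc3 among them, both treated libraries were above both controls (50%, beside 32.2% of all tested genes). At an unadjusted p under 0.05 there was 1 of 6, beside 4176 of all 13619 tested genes. Psmc4 had 142 and 203 CPM against 171 and 171. With library size alone, the sign of Psmc4 turned (-0.12).

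Of the 14 non-ATPase genes of the cap, 3 (Psmd5, Psmd9 and Psmd10) encode its chaperones. The 14 genes had log2 fold changes between -0.33 and 0.35, a median of 0.08 and no call by edgeR or DESeq2. At an unadjusted p under 0.05 there were 3, beside 4176 of all 13619 tested genes. Psmd8 was at 209 and 238 CPM against 175 and 176 (log2 fold change 0.35, adjusted p 0.149). Psmd7 was at 163 and 168 CPM against 205 and 212, the lowest of the class (log2 fold change -0.33, adjusted p 0.132). Psmd2, a scaffold subunit of the base, had 387 and 502 CPM against 456 and 459. Psmd12, a subunit of the lid, had 182 and 222 CPM against 201 and 202, a log2 fold change of 0.01 that was below 0 with library size alone (-0.12). The chaperone Psmd5 was at 92.4 and 89.8 CPM against 70.8 and 73.1 (log2 fold change 0.34, adjusted p 0.119).

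Alternative caps of the core went either way without passing the test. Psme1 and Psme2 form the interferon-inducible PA28αβ ring. Psme1 had 67.2 and 85.9 CPM against 51.1 and 54.8 (log2 fold change 0.53, adjusted p 0.120), and Psme2 had 76.2 and 89.4 CPM against 66.2 and 66.2 (log2 fold change 0.32, adjusted p 0.175). Psme3 forms the nuclear PA28γ ring and Psme4 is the single-chain activator PA200. Psme3 had 194 and 162 CPM against 211 and 210 (log2 fold change -0.24), and Psme4 had 112 and 95.2 CPM against 134 and 133 (log2 fold change -0.36, adjusted p 0.147). In all 4 activators the groups did not overlap, upwards in the PA28αβ genes and downwards in the other 2. Over all tested genes, 32.2% had both treated libraries above both controls and 34.0% had both below. Psmf1, which encodes the inhibitor PI31, was the nearest to the threshold of the members that missed it, at 99.7 and 129.7 CPM against 63.6 and 66.9. Its log2 fold change of 0.81 (SE 0.16) had an adjusted p of 0.068 by edgeR's quasi-likelihood test and 0.0071 by DESeq2. Psmf1 shares 684 bases with Tmem74b on the opposite strand. The spans of Psmd1 (18686 bases, Htr2b), Psme4 (18357, Erlec1), Psma3 (4263, a noncoding RNA gene) and Psmd10 (2867, Atg4a) overlap opposite-strand genes by more. Whether the counting used strand is not given in the sources used here.

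The 4 chaperones that assemble the core were the only class with every log2 fold change below 0, with a median of -0.25. Neither edgeR nor DESeq2 called any of them. None was under an unadjusted p of 0.05, where 4176 of all 13619 tested genes were. Psmg3 had 22.7 and 13.7 CPM against 25.7 and 27.1 (log2 fold change -0.54, adjusted p 0.256). Psmg2 had 43.6 and 34.8 CPM against 48.1 and 48.8 (log2 fold change -0.31, adjusted p 0.251). Without treated replicate 1, Psmg1 and Psmg4 turned to 0.28 and 0.06. Of the genes that only share the symbol, Psmc3ip, a meiotic recombination factor, was the lowest member at 14.6 and 17.0 CPM against 23.9 and 23.4 (log2 fold change -0.58, adjusted p 0.096).

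A more regular pattern lay between the treated libraries. All 31 genes of the 26S complex (Psma1 to Psma7, Psmb1 to Psmb7, Psmc1 to Psmc6 and the non-ATPases without chaperones) had more CPM in treated replicate 2 than in treated replicate 1, with a median difference of 0.42 on the log2 scale. Of all tested genes with a count in each library, 49.3% did. The same 31 genes differed between the control libraries by -0.01 to 0.09. With library size alone, 25 of the 31 were higher in treated replicate 2, the median difference being 0.22, beside 35.4% of all genes. Some other lists of the pathway were shifted the same way and others were not. Higher in treated replicate 2 were 11 of 12 delivery factors (median difference 0.39) and 5 of 6 genes of the ubiquitin and E1 list (median 0.64). So were 8 of 11 proteasome-associated and assembly genes (median 0.24). Only 2 of 8 regulators of subunit transcription (median -0.16) and 3 of 6 MHC class I genes (median -0.029) were higher there. Within the family, 2 of 4 activators and 2 of 4 core assembly chaperones were higher. Against the control mean, the median member stood at -0.12 in treated replicate 1 and at 0.32 in treated replicate 2. Psma7 and Psmb8 were above both controls in both treated libraries, by 1.08 and 1.37 for Psma7 and by 0.94 and 1.18 for Psmb8. The SD of the difference between replicates over the members was 0.29 in treated and 0.07 in control libraries, and over all tested genes it was 0.65 and 0.21. Members were the more abundant genes, and the part of abundance in these SDs was not tested.

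**Figure D3:**
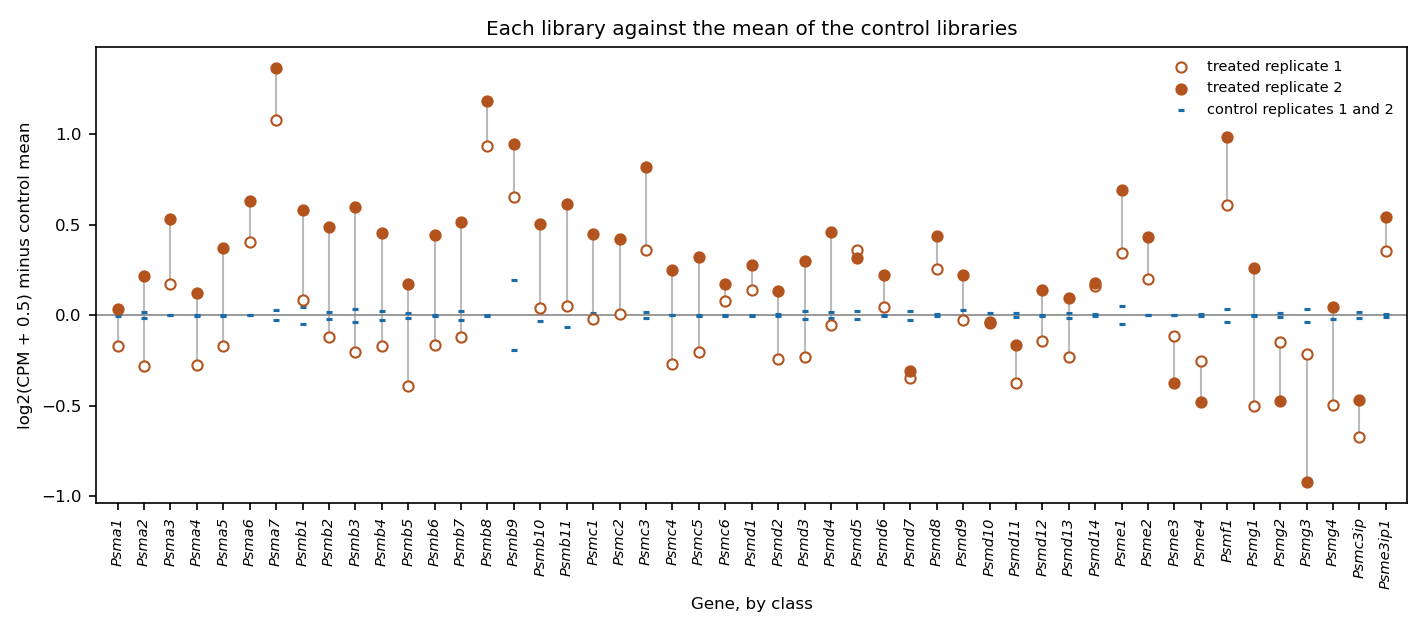
For each tested proteasome gene, log2(CPM + 0.5) in a library minus the mean of the controls is plotted, with open circles for treated replicate 1, filled circles for treated replicate 2 and blue dashes for the controls. Treated replicate 2 lies above treated replicate 1 in 44 of the 49 genes, and the controls lie close to 0.

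The members with the highest log2 fold changes lay among neighbours that were also higher, which was not so for several others. Around Psma7, an unbroken run of 11 tested protein-coding genes on chromosome 2 (179912146 to 180474853) had both treated libraries above both controls. The smallest log2 fold change among them was 0.83, the largest 1.96 and the median, Psma7 included, 1.21. The run was drawn outwards from Psma7 as long as both treated libraries were above both controls. High values within it and a break at its ends therefore follow from how it was drawn. Of the 11 genes, 6 rose at an adjusted p under 0.05: Taf4, Psma7, Ss18l1, Adrm1, Lama5 and Cables2. The genes next to the run on either side, Phactr3 and Mrgbp, had log2 fold changes of 0.10 and -0.34. The functions of the genes in the run differ, Taf4 being a subunit of the general transcription factor TFIID and Lama5 a laminin chain, while Adrm1 is itself the ubiquitin receptor Rpn13 of the cap and lies 129123 bases from Psma7.

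The same description was made for every member from the tested protein-coding genes whose starts lay within 1 Mb, a window chosen after values were seen. The 19 neighbours of Psma7 had a median log2 fold change of 0.98, with 15 above both controls in both treated libraries and 1 below both. The 21 neighbours of Psmf1 had a median of 0.59 (17 above, 1 below), and the 80 neighbours of Psmb8 had 0.38 (51 above, 13 below). The shares above were 78.9%, 81.0% and 63.8% in that order, beside 32.2% of all tested genes above and 34.0% below. The 78 neighbours of Psmb9, of which 77 were shared with Psmb8, had 0.37. Within 1 Mb, the 4 members with the highest log2 fold changes were also the 4 with the highest neighbour medians, while the other 45 members had neighbour medians between -0.87 and 0.29. Over 12247 tested protein-coding genes the neighbour median had a 5th percentile of -0.46 and a 95th percentile of 0.38. Within 0.5 Mb this order did not hold, since Psmd14, with 3 neighbours and a log2 fold change of 0.17, had a neighbour median of 0.61, above Psmb8 (0.53) and Psmb9 (0.50), and Psmb3 had 0.48. Psmc3, the fifth member by fold change, had 27 neighbours with a median of -0.02 within 1 Mb. The neighbours of Psme1 had a median of -0.12 and those of Psma6 -0.0058. Around the members with the lowest log2 fold changes, the neighbour median was 0.0068 for Psmc3ip and -0.013 for Psmg3. Across the 49 members, Pearson's r between a gene's log2 fold change and its neighbour median was 0.54 (Spearman's rho 0.40), and 0.21 (0.22) without those 4 members. All points share the same 4 libraries and some share neighbours. Across all tested protein-coding genes r was 0.27. Within 2 Mb the median around Psma7 was 0.31. DNA copy number and the structure of the chromosomes were not measured in these libraries, and their part was not tested.

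**Figure D4:**
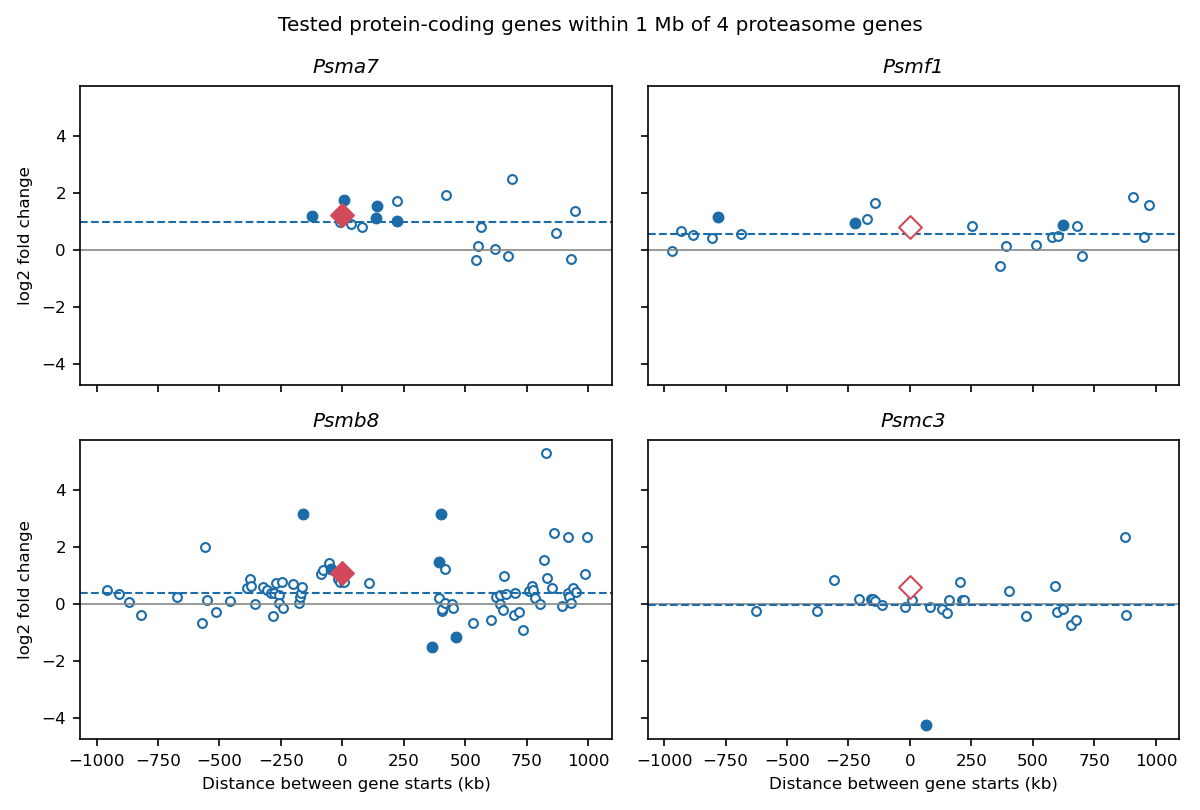
The log2 fold change of each tested protein-coding gene is plotted against the distance of its start from that of Psma7, Psmf1, Psmb8 or Psmc3 (kb, up to 1000 kb either way). Diamonds are the named members, filled symbols passed an adjusted p of 0.05, and the dashed line is the median of the neighbours (0.98, 0.59, 0.38 and -0.02).

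Of 43 other genes of the pathway in the table, 1 rose and none fell (2.33%, edgeR's quasi-likelihood test). Over all tested genes, 4.63% were called in either direction. DESeq2 called 9 of the 43, of which 7 were higher and 2 lower, where it called 14.2% of the 14170 genes it tested. The gene that rose was Adrm1, the ubiquitin receptor next to Psma7, at 387 and 483 CPM against 196 and 198 (log2 fold change 1.14, SE 0.16, adjusted p 0.042 by edgeR's quasi-likelihood test). Its adjusted p was 0.295 and 0.278 without control replicate 1 or 2. Pomp, the chaperone that completes core assembly, had 227 and 323 CPM against 229 and 233, a log2 fold change of 0.25 that turned to -0.03 without treated replicate 2. Of the transcription factors that act on subunit genes, Nfe2l1 had 285 and 250 CPM against 340 and 349 (log2 fold change -0.37, adjusted p 0.155). Nfe2l2, the antioxidant response factor, had 615 and 574 CPM against 391 and 391 (log2 fold change 0.60, adjusted p 0.076 by edgeR's quasi-likelihood test and 0.024 by DESeq2).

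Genes that serve MHC class I, with which the immunoproteasome works, did not pass the edgeR test. Of the 6 in the list, DESeq2 called Tap1, Tap2, B2m and the interferon regulatory factor Irf1 higher and 1 other gene lower. Over all genes it tested, DESeq2 called 14.2%. B2m, the light chain of MHC class I, had 1920 and 2164 CPM against 979 and 990 (log2 fold change 1.05, adjusted p 0.055). Tap1 and Tap2, the peptide transporter genes that neighbour Psmb8 and Psmb9, had log2 fold changes of 0.77 (adjusted p 0.111) and 0.79 (adjusted p 0.070).

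Ubb, a polyubiquitin gene, had 3146 and 5423 CPM against 2860 and 2984 (log2 fold change 0.55, adjusted p 0.330 by edgeR's quasi-likelihood test). Ubiquitin genes have nearly identical coding parts, and how the counting split shared reads is not given in the sources used here. The fusion gene Rps27a had a log2 fold change of 0.65 (adjusted p 0.155). The ubiquitin-activating enzymes Uba1 and Uba6 had -0.21 and -0.58. Among the delivery factors, Zfand5, a proteasome-binding zinc finger protein, had 206 and 280 CPM against 113 and 107 (log2 fold change 1.14, adjusted p 0.051), and Sqstm1, the ubiquitin-binding autophagy receptor, had 866 and 1516 CPM against 733 and 755 (log2 fold change 0.68, adjusted p 0.219). Ube3c, a ligase bound to the proteasome, had 43.4 and 34.2 CPM against 72.3 and 72.2 (log2 fold change -0.89, adjusted p 0.056).

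**Figure D5:**
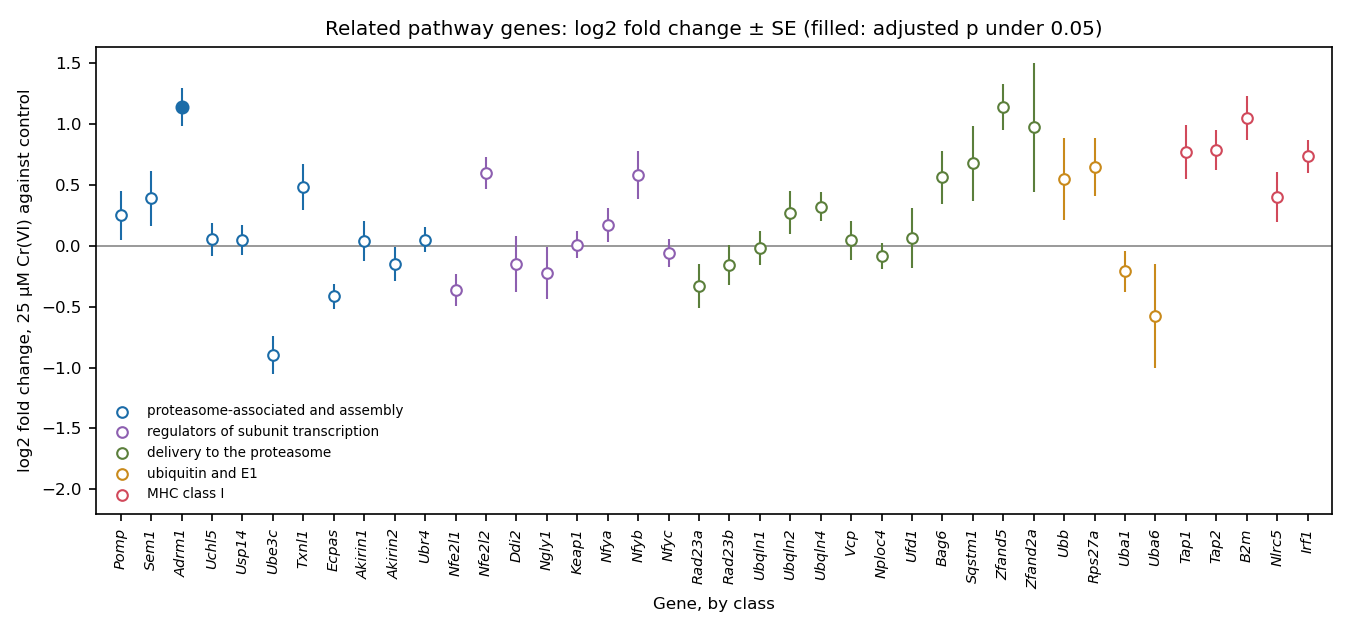
The log2 fold change of 40 of the related genes is plotted by class with bars of 1 SE (25 µM Cr(VI) against control, 2 libraries each). The filled point is Adrm1, which passed an adjusted p of 0.05; Ube3c is the lowest of the genes shown at -0.89.

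Chromatin at the proteasome promoters was then read from the FAIRE peaks, regions with more open DNA in the treated library than in its control. In the list for 25 µM Cr(VI), with 2945 peaks, no member had a peak centre within 1000 bases of an annotated start, beside 1.09% of 21774 protein-coding genes. The nearest peaks were 7698 bases before the start of Psma7 (90 bases wide, score 78.6) and 8029 bases after the start of Psmc3. The median distance to a peak was 118280 bases for the 51 annotated members and 225864 for all protein-coding genes. Within 10000 bases of a peak were 3.92% of members and 4.62% of all. With 1 library per condition, there was no test.

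In the list for the low dose, 0.5 µM, with 860 peaks, 1 member had a promoter peak, beside 0.905% of protein-coding genes. The gene was Psmd12 (chromosome 11, 107479528 to 107498036, plus strand). Its peak covered 107479186 to 107479785, 600 bases, with the centre 43 bases before the start and a MACS score, 10 times the negative log10 of the p-value, of 70.8, where the lowest scores of the lists were 50.01 and 50.00. The peak was not in the 36 of at least 100. The paper lists Psmd12 among genes with a motif of the transcription factor AP-1 in a promoter opened at 0.5 µM. It reports that RNA-seq showed no significant expression change for the genes it lists. The RNA-seq libraries used here included none from cells at 0.5 µM, so expression at that dose was not analysed. At 25 µM the log2 fold change of Psmd12 was 0.01, with the treated libraries on either side of the controls. The 250 bases before its start (chr11:107479278-107479527, plus strand), all within the peak, are shown with the capitals marking the antioxidant response core TGACNNNGC read on the minus strand, 247 bases before the start.
Psmd12: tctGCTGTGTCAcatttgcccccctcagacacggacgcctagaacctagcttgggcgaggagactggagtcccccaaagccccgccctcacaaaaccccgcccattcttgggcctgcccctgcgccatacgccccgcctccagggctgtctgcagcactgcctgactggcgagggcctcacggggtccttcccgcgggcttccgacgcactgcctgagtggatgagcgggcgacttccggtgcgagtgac

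That motif was no more frequent in proteasome promoters than elsewhere. In the RefSeq windows from 250 bases before to 50 after the start, TGACNNNGC occurred on either strand in 6 of 41 member genes (14.6%) and in 14.8% of 17491 protein-coding genes. The 6 genes were Psmb5, Psmb6, Psmc6, Psmd9, Psmd12 and Psme4, of which none passed the expression test. CCAAT occurred in 14 of the 41 (34.1%) and in 42.3% of all. A match is a match of letters and does not show binding.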

How the data were processed

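Per the labels and methods, the authors aligned RNA-seq reads to mm10 with TopHat and deposited raw read counts per Entrez gene; the counting tool and use of strand are not given in the sources used here. The deposited FAIRE lists hold a MACS score per peak, called by the authors from BWA alignments of 1 treated library against its control. GeneIDs were matched to RefSeq symbols for 23305 of 23403 genes. Counts were tested with edgeR 4.0.16 in R 4.3.3 (filterByExpr, TMM, glmQLFit and glmQLFTest, group alone, Benjamini-Hochberg over 13619 genes, threshold 0.05), after a test on simulated data. The study used DESeq; DESeq2 1.42.0, other scalings, no filter, a replicate block and leaving out each library were alternatives. SE is the log2 fold change divided by the square root of F; RPKM used the union of RefSeq exons; library plots used log2(CPM + 0.5). Named genes were those with an adjusted p under 0.05, the 5 highest and 5 lowest members, immunoproteasome, activator and catalytic genes, members with a promoter peak and the pair at the threshold, with Nfe2l1, Nfe2l2, Pomp and called related genes (22 in all); all other named genes, and the neighbour windows, were chosen after values were seen. Members and lists were chosen with earlier results of these data known. Counts cover counting error and replicate spread only. Replicate numbers were not taken to pair the libraries in the main test. The correlation of same-numbered deviations was 0.09, which with only 2 numbers cannot exclude a pairing. Sequences are from RefSeq GRCm38.p6, with promoter windows for 41 member genes. Values of 3 related genes are not reported here.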

Additional observations from a re-analysis of the deposited data

How the results depend on the processing

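Psma7, Psmb8 and Adrm1 passed the threshold in 7 of 9 alternatives each and missed it without either control. The number of members called, 2 in the main test, was 4 with the replicate block (also Psmf1 and Psmc3), where the samples share only a number, and 0 to 46 when leaving out 1 library. Over all tested genes the 631 calls became 2969 with the replicate block and 2015 with DESeq2, and 287 to 10995 when leaving out 1 library. Of the related genes 1 was called, against 11 with the replicate block, 3 with library size alone, 5 with no filter on low counts, 9 with DESeq2 and 1 to 34 when leaving out 1 library. Leaving out a treated library takes the spread from the controls alone, and the lone treated library is assumed to vary like them. The members' median lay between -0.12 (without treated replicate 2) and 0.33 (without treated replicate 1), and was 0.14 with the replicate block. No called gene reversed. Signs turned for Psmd12 with the replicate block (-0.0013), library size alone (-0.12), no filter (-0.024) and DESeq2 (-3.3e-05), for Psmc4 with the block (-0.0100), library size alone (-0.12) and no filter (-0.019), and for Psma5 with library size alone (-0.0041). Without 1 library at a time, the log2 fold change lay for Psmc4 between -0.27 and 0.26, for Psmd12 between -0.15 and 0.15, for Psma5 between -0.17 and 0.38, for Psma1 between -0.17 and 0.046, for Psmb5 between -0.39 and 0.19, for Psmd2 between -0.24 and 0.14, for Psmg1 between -0.52 and 0.28, for Psmg4 between -0.51 and 0.058, for Psmb3 between -0.21 and 0.61, for Psmb4 between -0.18 and 0.47, for Psmb6 between -0.16 and 0.46, for Psmb7 between -0.12 and 0.53, and for Pomp between -0.029 and 0.49. The peak at Psmd12 was counted at 500 and 5000 bases and by any overlap, and 0 members remained at a score of at least 100; the 25 µM list gave 0 under each rule. The median around Psma7 was 1.18 within 0.5 Mb and 0.31 within 2 Mb, and around Psmf1 0.90 and 0.54. The cause of these shifts was not tested.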
